A study of Mus musculus with 33 samples.

Results

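The 41 genes described here belong to the oligodendrocyte lineage and the myelin sheath of mouse brain. They were chosen by name, by a rule that uses no measured value but was written with earlier results of these data known, and each was found by its symbol in all 5 deposited count tables, as 41 of 38393 features. By textbook role they fall into 4 progenitor and precursor genes, 6 transcription factors, 18 genes of the myelin sheath and its membranes, and 13 genes of myelin lipid synthesis, metabolism and other enriched functions. The first class is called progenitor genes below for short, although its Enpp6 and Bcas1 are known from newly forming and early myelinating cells. The last pair of classes makes up the 31 myelinating genes.

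Oligodendrocytes wrap axons of the central nervous system in layers of membrane that insulate them. They arise from dividing progenitors that carry the receptor Pdgfra, pass through a precursor stage marked by Gpr17, and on maturing switch on the regulator Myrf and with it the genes of compact myelin, among them Mbp, Mobp, Mag and Mog. Progenitors persist in grey matter after myelin has formed, so a piece of brain tissue holds RNA of both stages.

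Cerebellum and cortex of 1-month-old male C57Bl/6J mice were frozen, and polyadenylated RNA was sequenced in 33 libraries of 9 groups. Experiment 1A held 3 wild-type libraries and 4 of CyrMut, in which the miR-7 site of the long noncoding RNA Cyrano is mutated, all from cerebellum. Experiment 1B held 4 wild-type, 4 CyrKO (Cyrano-/-) and 4 Mir7DKO (Mir7a1-/-; Mir7b-/-) cerebellum libraries. Experiment 2 held 4 wild-type and 3 Mir7DKO libraries of each tissue. The genotypes are given for the whole animal, with no restriction to a cell type, and the labels name neither the size of each lesion nor the animals behind each library. The third mouse gene for miR-7, Mir7-2, is not among those named as deleted. Each mutant was compared only with the wild type of its own table, and CyrKO and Mir7DKO of experiment 1B share their 4 wild-type libraries. The submitters call the replicates biological, and the p-values below measure the spread between them. In bulk tissue, fewer cells of a type and less RNA per cell cannot be told apart.

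Libraries held 6887853 to 24939149 counts, and levels are given as CPM, a gene's counts scaled to a fixed library total. Cyrano was at 74.7 to 88.3 CPM in the CyrKO libraries and at 1579 to 1970 CPM in their wild type. In CyrMut it was at 1924 to 1999 CPM, beside 1557 to 1873 CPM in wild type. Mature miR-7 was not measured, and reads over the Mir7b feature summed to 17 in the Mir7DKO libraries of experiment 1B and 0 in their wild type, so the double deletion was not checked by these counts. Wild-type libraries of experiment 2 matched their tissue labels: 5 granule cell genes summed to 5243 to 5566 CPM in cerebellum and 47.9 to 58.0 CPM in cortex, and 5 genes of cortical projection neurons to 515 to 532 CPM and 1523 to 1705 CPM. Of the Schwann cell markers, 1 of 4 was high enough to test.

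The microRNAs made from the deleted genes and the matches to them in the members are shown first, because the Mir7DKO comparisons turn on them. A microRNA lowers target RNAs by pairing its seed, bases 2 to 8 from its 5′ end, with sites that lie mostly in 3′ UTRs. The mature sequences, from RefSeq (GRCm38.p6), have the seed in capitals. Mir7-1 lies at chr13:58392841-58392863 on the minus strand and Mir7b at chr17:56243017-56243040 on the plus strand. Mir7-2, at chr7:78888295-78888317 on the plus strand, holds the same miR-7a-5p sequence as Mir7-1 and is not named as deleted.
miR-7a-5p: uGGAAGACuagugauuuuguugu
miR-7b-5p: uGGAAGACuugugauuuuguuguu

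The longest annotated 3′ UTR (GENCODE M21, GRCm38) of 10 of the 41 members, 24.4%, held a 7-mer or 8-mer match to this seed. Of the 13139 genes with a 3′ UTR tested in Mir7DKO of experiment 1B, 29.1% did. The searched strings were GTCTTCCA (the 8-mer), GTCTTCC (pairing with the whole seed) and TCTTCCA (pairing with bases 2 to 7, followed by A), on the strand of the RNA only, each match counted once as its longest form. There were 13 matches, 3 of them 8-mers, and 3 of the 13 lie in Mbp and are not shown. The others follow, 5′ to 3′ as DNA letters of the transcribed strand, with the match in capitals. A match is a description of sequence and not a shown site of binding.
Pdgfra, chr5:75198099-75198106, plus strand, 8-mer: ccataggaaggGTCTTCCAatacaagatgg
Mobp, chr9:120175949-120175956, plus strand, 8-mer: actccatcattGTCTTCCAggatcatctgc
Tmem88b, chr4:155784079-155784086, minus strand, 8-mer: aagcatattatGTCTTCCAcccaattctgt
Tspan2, chr3:102770683-102770689, plus strand, 7-mer: ttagtttatctGTCTTCCtgaagacagag
Myrf, chr19:10210164-10210170, minus strand, 7-mer: cagcctcctggGTCTTCCttctggtcatc
Gjc3, chr5:137955595-137955601, minus strand, 7-mer: aagaagatggaGTCTTCCtctgccagcat
Mog, chr17:37011486-37011492, minus strand, 7-mer: gtgatggttgtGTCTTCCtggagcggaag
Mog, chr17:37011138-37011144, minus strand, 7-mer: tggtggatattTCTTCCAagaccacagcc
Ugt8a, chr3:125866354-125866360, minus strand, 7-mer: caacgtatcctTCTTCCAaacagaacatt
Nkx6-2, chr7:139581195-139581201, minus strand, 7-mer: cacatcgtgttTCTTCCAtacggagctgg

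The members spanned a wide range of levels. In wild-type cerebellum of experiment 2, per kilobase of merged exons, Mbp (myelin basic protein, which compacts the sheath) stood at 319 CPM per kb and Mobp (an abundant small myelin protein) at 176 CPM per kb. Mal (a lipid raft proteolipid) and Cnp (a phosphodiesterase of the cytoplasmic channels of myelin) came next at 123 and 90.6 CPM per kb. At the other end were Pdgfra at 2.90 CPM per kb and the homeodomain factors Nkx2-2 at 2.48 and Nkx6-2 at 2.11 CPM per kb. Enpp6, of the same class as Pdgfra, was at 2.99 CPM per kb. Myelinating members held the top of the order, but the classes overlapped. Bcas1, placed in the progenitor class but known from early myelinating cells, was at 46.3 CPM per kb, above Mag at 42.5. The myelinating Opalin, Aspa and Ppp1r14a, at 5.87, 4.31 and 3.68 CPM per kb, lay below Gpr17 at 8.27 CPM per kb. How close libraries of 1 group lay for the myelinating genes differed between groups. The median coefficient of variation was 4.82% in wild-type cerebellum of experiment 2, beside 7.39% over all 14146 genes tested. In CyrKO it was 14.4% beside 8.91% over all genes tested, and in Mir7DKO of experiment 1B 10.5% beside 8.81%.

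In wild-type mice, members of every class went in both directions between cerebellum and cortex. Of the 4 progenitor genes 2 were lower in cerebellum (Pdgfra and Gpr17) and 1 higher (Enpp6), and of the 6 factors 4 were lower (Olig1, Olig2, Sox10 and Nkx6-2) and 1 higher (Nkx2-2), while Bcas1 and Myrf did not pass. At an adjusted p under 0.05 (edgeR's quasi-likelihood test, Benjamini-Hochberg adjustment over 14001 genes), 14 of 41 members were higher in cerebellum and 15 were higher in cortex. Of all genes tested, 37.3% were higher in cerebellum and 37.4% higher in cortex, so the members' counts were near the background in both directions. The median log2 difference was -0.71 over the 4 progenitor genes, -0.56 over the 6 factors and 0.00 over the 31 myelinating genes, beside 0.01 over all genes tested. The first of these lies between values far apart, those of Pdgfra (2.54-fold lower in cerebellum) and Bcas1 (1.06-fold lower), and is the value of no gene.

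Pdgfra, the receptor for the growth factor that drives progenitor division, was at 29.3, 27.4, 31.7 and 27.9 CPM in the 4 cerebellum libraries and at 75.4, 72.1, 77.7 and 70.7 CPM in the 4 cortex libraries. All cortex libraries lay above all cerebellum libraries. The log2 difference, cerebellum over cortex, was -1.34 (SE 0.0621, adjusted p 2.7e-15 by edgeR). Fibroblasts also carry Pdgfra, and 8 meningeal fibroblast markers summed to 228 to 297 CPM in cerebellum and 217 to 270 CPM in cortex, with 2 higher and 2 lower in cerebellum. Gpr17, a receptor of committed precursors, was at 42.6, 45.1, 42.4 and 41.8 CPM in cerebellum and at 106, 114, 111 and 112 CPM in cortex. Its groups did not overlap, and its log2 difference of -1.37 (SE 0.0518, adjusted p 5.7e-17 by edgeR) was the lowest of the 41.

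The 2 other genes of this class did not follow Pdgfra and Gpr17. Enpp6, a choline phosphodiesterase known from newly forming oligodendrocytes, was at 18.5, 20.4, 20.1 and 17.5 CPM in cerebellum and at 16.7, 16.2, 14.1 and 15.4 CPM in cortex. Without overlap, it was higher in cerebellum, with a log2 difference of 0.29 (SE 0.0923, adjusted p 0.0067 by edgeR). Bcas1, a marker of early myelinating cells, was at 168, 160, 194 and 177 CPM in cerebellum and at 190, 195, 169 and 185 CPM in cortex. These groups overlapped, and the log2 difference was -0.08 (SE 0.0549, adjusted p 0.195 by edgeR).

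Among the factors, the basic helix-loop-helix proteins that specify the lineage showed the widest gap. Olig1 was at 42.2, 39.0, 39.1 and 33.9 CPM in cerebellum and at 80.5, 92.7, 93.4 and 91.4 CPM in cortex, a log2 difference of -1.22 (SE 0.0666, adjusted p 7.1e-14 by edgeR). Olig2 was at 14.1, 15.0, 13.5 and 9.34 CPM in cerebellum and at 25.5, 26.6, 27.9 and 29.0 CPM in cortex, a log2 difference of -1.07 (SE 0.111, adjusted p 7.7e-09 by edgeR). For both, every cortex library was above every cerebellum library.

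Sox10, which keeps cells in the lineage and acts with Myrf in mature cells, was at 24.5, 23.0, 26.0 and 27.0 CPM in cerebellum and at 35.1, 34.4, 40.1 and 40.0 CPM in cortex. It was lower in cerebellum in every library, with a log2 difference of -0.57 (SE 0.0768, adjusted p 5.7e-07 by edgeR). Nkx6-2 was also lower in cerebellum, by -0.56 on the log2 scale, at 3.19 to 4.90 against 5.34 to 6.13 CPM. Nkx2-2, which promotes differentiation, was higher in cerebellum, at 6.20, 7.28, 8.20 and 6.88 CPM against 4.399, 3.94, 4.76 and 2.92 CPM in cortex. Its log2 difference was 0.84 (SE 0.171, adjusted p 0.00013 by edgeR). Myrf, the switch to myelination, was at 59.8, 66.4, 65.9 and 56.6 CPM in cerebellum and at 63.4, 63.8, 56.6 and 64.2 CPM in cortex. Its groups overlapped, and the log2 difference was 0.00 (SE 0.063, adjusted p 0.964 by edgeR).

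**Figure D1:**
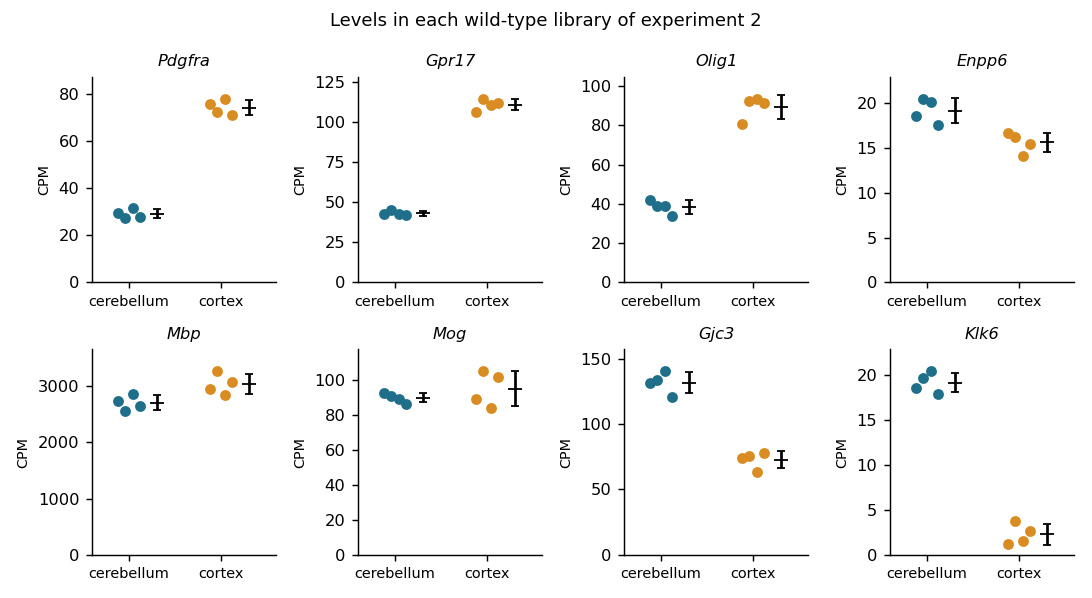
CPM of 8 members (vertical axes, from 0) in each of the 4 wild-type cerebellum and 4 wild-type cortex libraries of experiment 2, with mean and SD beside the points. Pdgfra, Gpr17 and Olig1 lay lower in every cerebellum library, Gjc3 and Klk6 higher, and Mbp and Mog overlapped.

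The most abundant sheath RNAs differed little between the tissues. Mbp was at 2733, 2554, 2866 and 2643 CPM in cerebellum and at 2956, 3258, 2846 and 3069 CPM in cortex. Although 1 pair of libraries overlapped, the log2 difference of -0.17 (SE 0.0465, adjusted p 0.0025 by edgeR) passed. Mobp was at 1233, 1186, 1261 and 1154 CPM against 1216, 1437, 1296 and 1352 CPM, with a log2 difference of -0.13 (adjusted p 0.013 by edgeR). Cnp was at 333, 343, 321 and 323 CPM against 366, 391, 354 and 386 CPM, without overlap, and at -0.18 (adjusted p 0.00041 by edgeR). Mbp, Mobp and Cnp were thus all slightly lower in cerebellum.

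Mag and Mog, glycoproteins of the inner and outer faces of the sheath, showed overlapping groups. Mag was at 170, 178, 176 and 170 CPM in cerebellum and 181, 191, 166 and 184 CPM in cortex, a log2 difference of -0.06 (adjusted p 0.244 by edgeR). Mog was at 92.7, 90.6, 89.4 and 86.6 CPM against 89.0, 105, 84.0 and 102 CPM, a log2 difference of -0.08 (adjusted p 0.231 by edgeR). The same overlap held for Tspan2 (a tetraspanin), Tmem88b, Gpr37 and Lpar1 (receptors of late oligodendrocytes), whose log2 differences ran from -0.04 to 0.06.

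Larger gaps lay among the junction and membrane proteins, in both directions. The connexins that couple oligodendrocytes were higher in cerebellum: Gjc3 was at 132, 134, 140 and 120.9 CPM against 74.2, 75.6, 63.5 and 77.7 CPM in cortex (log2 difference 0.85, SE 0.0602, adjusted p 8.6e-12 by edgeR). Gjb1 was at 17.6 to 20.3 CPM against 9.82 to 13.2 CPM (log2 difference 0.70, adjusted p 1.6e-06 by edgeR). Hapln2, a link protein of the matrix at nodes of Ranvier, was at 23.2 to 24.1 CPM against 12.9 to 15.1 CPM (log2 difference 0.73, adjusted p 5e-08 by edgeR). None of these overlapped between tissues.

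Opalin, a transmembrane glycoprotein of mature oligodendrocytes, was lower in cerebellum, at 20.4, 14.9, 17.9 and 15.9 CPM against 32.4, 33.2, 25.5 and 28.8 CPM (log2 difference -0.80, SE 0.0998, adjusted p 1.7e-07 by edgeR). Cldn11, which forms the tight junctions of myelin, and Mal were also lower, at -0.55 and -0.52. In all, 6 of the 18 sheath genes were higher in cerebellum and 6 in cortex, beside 37.3% and 37.4% of all genes tested. Ermn, Plekhb1 and Evi2a were the remaining ones higher in cerebellum, at 0.46, 0.25 and 0.22.

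Klk6, a secreted serine protease of oligodendrocytes, showed the highest difference of the 41 members. It was at 18.6, 19.7, 20.4 and 17.9 CPM in cerebellum and at 1.1996, 3.80, 1.59 and 2.64 CPM in cortex, a log2 difference of 3.05 (SE 0.18, 8.29-fold, adjusted p 3.1e-13 by edgeR). Each cerebellum library lay far above each cortex library. The size of the fold rests on low cortex values that spread widely. Their coefficient of variation was 50.7% in wild-type cortex, the highest of the myelinating members there. Trf, the iron carrier transferrin, was at 48.9, 62.6, 59.3 and 51.0 CPM against 31.3, 36.6, 28.6 and 29.3 CPM, a log2 difference of 0.82 (SE 0.0852, adjusted p 8.9e-09 by edgeR). Choroid plexus also makes Trf, and 8 choroid plexus markers summed to 34.0 to 39.1 CPM in cerebellum and, in cortex, to 66.8, 15.3, 359 and 397 CPM. Cortex replicate 2 was thus below every cerebellum library in that sum and the other cortex libraries above, but single markers differed. Replicate 2 was below all cerebellum libraries for Otx2, Clic6, Kcnj13, Slc4a5 and Cldn2. It was within their range for Ttr and above it for Kl and Prlr. Much of the cerebellum sums came from Clic6 and from Otx2, which was at 13.2 to 15.3 CPM there and 0.141 to 3.34 CPM in cortex. The sums therefore do not rank the libraries by choroid plexus RNA alone, and its part in the Trf difference was not tested.

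Of the other members of this class, Ugt8a, which makes galactosylceramide, was higher in cerebellum by 0.37, Fa2h, which hydroxylates its fatty acid, by 0.20, and Aspa, which frees acetate from N-acetylaspartate, by 0.28. Gal3st1, a non-member that turns galactosylceramide into sulfatide and is named here after its values were seen, was lower, at -0.66 (adjusted p 0.00058 by edgeR). Apod, a lipid carrier, was higher by 0.67. Cryab (a small heat shock protein), Qdpr (a pteridine reductase) and Sirt2 (a deacetylase) were lower, at -0.35, -0.30 and -0.18. Apod and Cryab are also known from astrocytes and fibroblasts, and the 7 astrocyte markers were split: 4 were higher in cerebellum, among them Aqp4 at 1.81, Slc1a3 at 1.33 and Aldoc at 1.11, and 2 were lower, among them Slc1a2 at -1.85. Their sum, 5414 to 5578 CPM in cerebellum and 6727 to 7118 CPM in cortex, followed Slc1a2, the most abundant of them in cortex, at a mean of 1399 against 5041 CPM. The part of those cells in the 2 differences was not tested. Ndrg1, Car2, Gsn and Ppp1r14a did not pass and lay between -0.10 and 0.11. In this class of 13, 6 genes were higher in cerebellum and 3 in cortex, beside 37.3% and 37.4% of all genes tested.

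**Figure D2:**
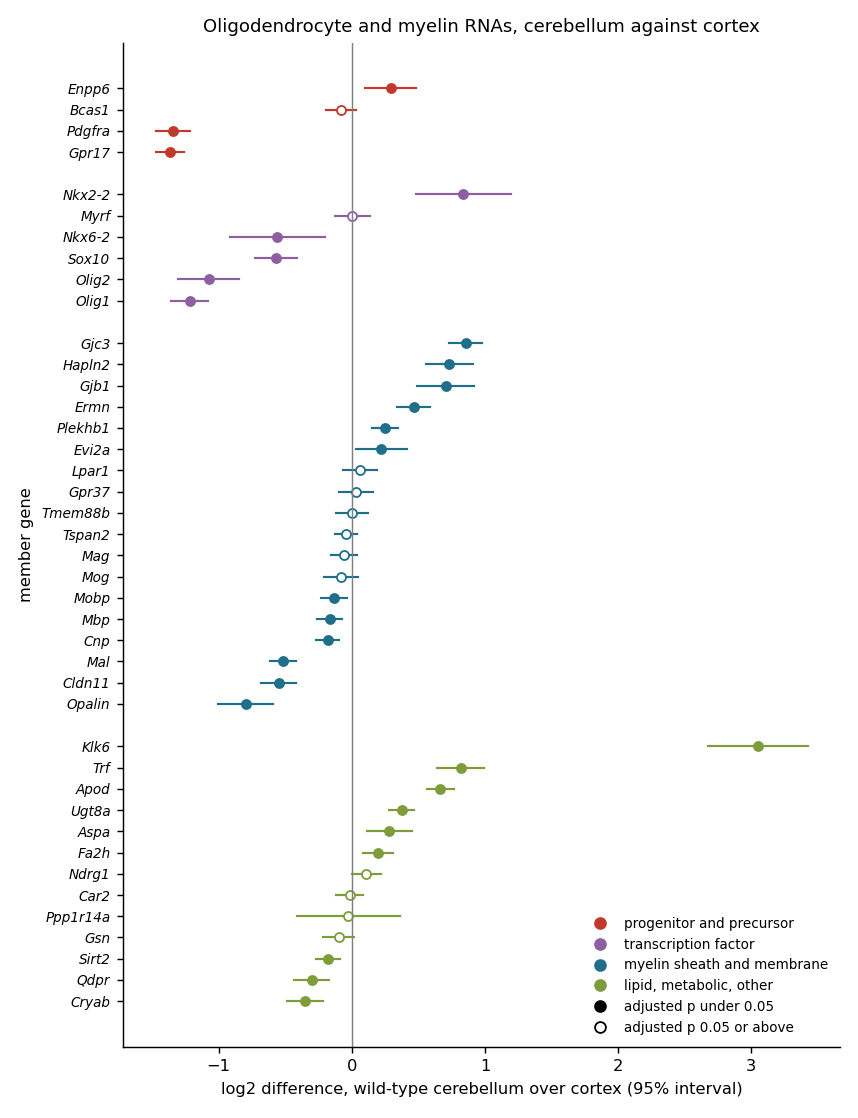
Log2 difference of each of the 41 members, wild-type cerebellum over cortex (horizontal axis), with its 95% interval. Rows are grouped and coloured by class, and filled points passed an adjusted p of 0.05. Klk6 stands at 3.05, while Pdgfra, Gpr17, Olig1 and Olig2 lie below -1.

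The summed level of the 31 myelinating members was 7181 ± 222 CPM (SD, n = 4) in cerebellum and 7666 ± 405 CPM (SD, n = 4) in cortex. The ranges, 6965 to 7464 and 7299 to 8167 CPM, overlapped. Mbp made up much of this sum, and without it the levels were 4482 ± 116 and 4633 ± 236 CPM (SD, n = 4). The 4 progenitor genes summed to 253 to 288 CPM in cerebellum and 372 to 398 CPM in cortex, and the 6 factors to 137 to 157 and 215 to 234 CPM. Both of these sums were lower in every cerebellum library than in any cortex library. Bcas1, the most abundant of the 4 progenitor genes, made up 160 to 194 CPM of their sum in cerebellum and 169 to 195 CPM in cortex.

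Other genes of the lineage, from a list of non-members, were split in the same comparison. As given above, 37.3% of all genes tested there were higher in cerebellum and 37.4% lower. Of 11 further progenitor genes found (1 of 12 listed was not), 8 were lower in cerebellum and 2 higher, with a median log2 difference of -0.74. Those lower included Matn4 at -1.65, Xylt1 at -1.21 and the factor Sox6 at -1.11. Ptprz1, a receptor phosphatase also carried by astroglia, was higher at 0.95. Of 24 further myelinating genes, 11 were higher in cerebellum and 6 lower, with a median of 0.09. The largest differences were those of the septin Sept4 at 1.53, the lipid transporter Abca2 at 0.92, the scaffold protein Anln at 0.87 and the protease Adamts4 at 0.69, all higher in cerebellum.

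With the pair of cortex libraries rich in choroid plexus RNA left out, 26 of the 41 members passed, beside 9753 of 14530 genes tested. With all libraries, 29 members and 10455 of 14001 genes had passed. All 26 were among the 29, and Enpp6 (0.22, adjusted p 0.0989), Mobp (-0.13, adjusted p 0.0559) and Evi2a (0.13, adjusted p 0.313, all by edgeR) did not pass. With the Mir7DKO libraries in place of wild type, Evi2a turned to -0.0475 (adjusted p 0.742), and Mbp, Mobp, Cryab and Sirt2 did not pass (adjusted p 0.136, 0.159, 0.06 and 0.332, all by edgeR). Gsn, which had not passed in wild type, passed there at -0.19 (adjusted p 0.0287 by edgeR). Evi2a and Mobp also depended on single libraries: without cortex replicate 3 Evi2a was at 0.16 (adjusted p 0.153), and it did not pass without any of cerebellum replicates 2, 3 and 4 or cortex replicates 1 and 4. Mobp did not pass without cerebellum replicate 4 or cortex replicate 2 (adjusted p 0.0759 and 0.0724 by edgeR).

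In the mutants, no member passed in any of the 5 comparisons. Each comparison is given below with the members of smallest p, and these are descriptions of values that did not pass the adjustment. The authors' deposited table gave the same count of 0 members under 0.05 in each comparison, with a lowest adjusted p of 0.396 in the authors' deposited table for cerebellum of experiment 2.

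**Figure D3:**
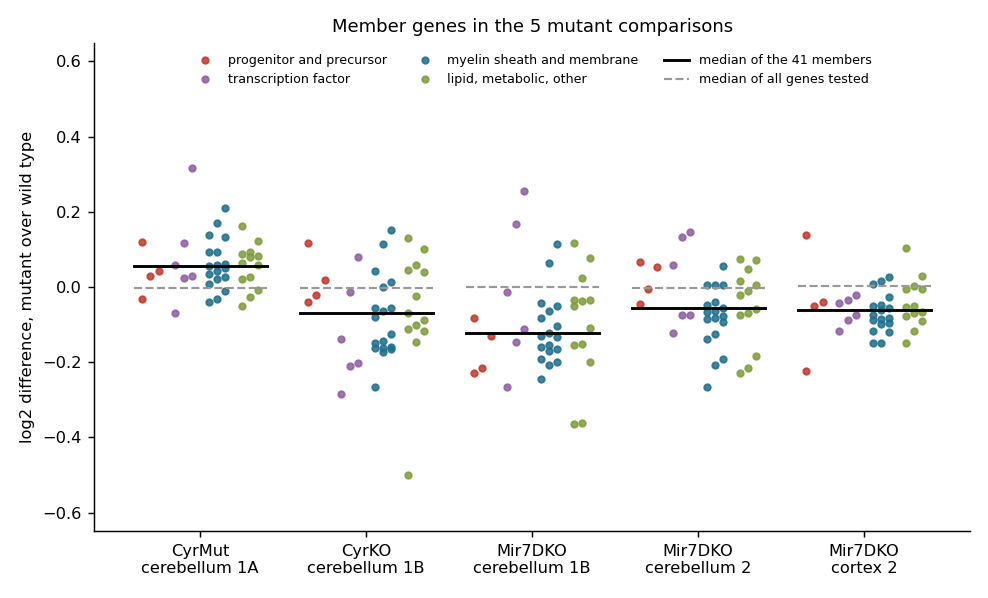
Log2 difference of each member, mutant over wild type (vertical axis), in the 5 comparisons, coloured by class. The solid line is the median of the 41 members and the dashed line that of all genes tested. Member medians ran from -0.12 to 0.06, and every point lies between -0.50 and 0.32.

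CyrMut cerebellum showed 0 of 41 members past the threshold in edgeR, where 0.00673% of all genes tested passed, and 0 in DESeq2. At an unadjusted p under 0.05 there were also 0 members, beside 4.98% of all genes tested. The member median was 0.06 on the log2 scale, with 33 above 0 and 8 below, beside a median of 0.00 over all genes. Mag was at 190, 171 and 188 CPM in wild type and at 198, 219, 203 and 186 CPM in CyrMut, a log2 difference of 0.14 (95% interval -0.00496 to 0.28, adjusted p 0.944 by edgeR). Opalin was at 12.7, 14.7 and 14.5 CPM against 18.9, 14.9, 14.7 and 16.1 CPM, at 0.21 (adjusted p 0.944 by edgeR). It was the 1 member whose groups did not overlap, beside 5.39% of all genes tested, and its nearest wild-type and mutant libraries were equal after rounding. Ermn, a cytoskeletal protein of myelin, was at 0.17 (adjusted p 0.944 by edgeR).

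The abundant and the progenitor genes overlapped in CyrMut. Mbp was at 3065, 2968 and 3203 CPM in wild type and at 3026, 3508, 3184 and 2836 CPM in CyrMut. Pdgfra was at 30.2, 27.1 and 27.5 CPM against 31.2, 25.4, 28.1 and 31.8 CPM, and Gpr17 at 56.2, 57.3 and 41.9 CPM against 48.2, 55.9, 53.8 and 46.0 CPM. The 12 choroid plexus markers summed to 45.9 to 1214 CPM in CyrMut and 39.8 to 375 CPM in wild type. Trf, Car2 and Gsn, members also made by choroid plexus or other cells, were at 0.12, 0.06 and 0.08, and the part of choroid plexus in them was not tested.

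Mog was at 82.2, 78.98 and 87.4 CPM in wild type and at 88.5, 94.9, 84.2 and 75.2 CPM in CyrMut. Mobp was at 1103, 1036 and 1133 CPM in wild type and at 1130, 1207, 1142 and 1056 CPM in CyrMut. Cnp was at 342, 337 and 341 CPM in wild type and at 346, 365, 328 and 329 CPM in CyrMut. All 3 overlapped between the groups, with log2 differences of 0.05, 0.06 and 0.01. Myrf was at 63.5, 59.6 and 61.1 CPM in wild type and at 63.3, 65.2, 66.2 and 60.97 CPM in CyrMut. Sox10 was at 29.9, 26.9 and 28.95 CPM in wild type and at 30.01, 28.6, 29.7 and 27.7 CPM in CyrMut. Olig2 was at 14.3, 13.7 and 18.7 CPM in wild type and at 13.4, 16.5, 13.4 and 15.5 CPM in CyrMut. The groups overlapped for each of these, and the log2 differences were 0.06, 0.02 and -0.07. Enpp6 was at 22.9, 19.5 and 20.5 CPM in wild type and at 26.9, 23.1, 20.4 and 21.1 CPM in CyrMut. Bcas1 was at 158, 153 and 169 CPM in wild type and at 172, 165, 146 and 169 CPM in CyrMut. Both overlapped between the groups, with log2 differences of 0.12 and 0.03.

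CyrKO cerebellum likewise showed 0 of 41 members past the threshold in edgeR, where 0.0220% of all genes tested passed, and 0 in DESeq2. At an unadjusted p under 0.05 there were 5 members, or 12.2%, beside 7.35% of all genes tested, and each of the 5 was lower in CyrKO. The median was -0.07, with 13 members above 0 and 28 below. Ppp1r14a, an inhibitor of a myosin phosphatase, was at 6.07, 4.48, 5.12 and 4.73 CPM in wild type and at 3.71, 3.18, 3.47 and 4.10 CPM in CyrKO (log2 difference -0.50, SE 0.16, adjusted p 0.677 by edgeR). Olig1 was at 47.2, 43.9, 44.9 and 48.3 CPM against 42.5, 34.3, 42.8 and 40.8 CPM (log2 difference -0.20, adjusted p 0.677 by edgeR). These were the 2 members whose groups did not overlap, beside 4.05% of all genes tested. Olig2 was at 14.5, 18.0, 17.0 and 18.2 CPM against 15.5, 11.98, 16.3 and 12.03 CPM, with overlap (log2 difference -0.28, adjusted p 0.677 by edgeR).

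A single CyrKO library stood apart in these genes. The 31 myelinating members summed to 7322, 5387, 7290 and 7029 CPM in CyrKO replicates 1 to 4, beside 7066 to 7444 CPM in wild type. Replicate 2 was lowest for Mbp, at 2116 CPM against 2838, 2918 and 2601 CPM in the other CyrKO libraries, for Mobp at 810 CPM against 1195 to 1259 CPM, and for Mag at 114 CPM against 159 to 195 CPM. In the same library 5 markers of brainstem and deep nuclei summed to 262 CPM, beside 367 to 389 CPM in the other CyrKO libraries and 344 to 378 CPM in wild type, and their part in the result was not tested. Without replicate 2 the member median was 0.01, with 21 members above 0 and 20 below, and Ppp1r14a stood at -0.44 and Olig1 at -0.13. The progenitor genes varied too: Gpr17 was at 59.4, 56.3, 59.2 and 38.4 CPM in CyrKO and 48.2 to 60.0 CPM in wild type.

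Mog was at 86.02, 84.9, 77.5 and 84.8 CPM in wild type and at 89.9, 66.7, 83.3 and 81.2 CPM in CyrKO. Mag was at 181, 184, 151 and 194 CPM in wild type and at 195, 114, 159 and 169 CPM in CyrKO. Mobp was at 1193, 1182, 1119 and 1147 CPM in wild type and at 1199, 810, 1195 and 1259 CPM in CyrKO. Wild type and mutant overlapped in every one of the 3, at log2 differences of -0.06, -0.16 and -0.06. Cnp was at 335, 338, 310 and 346 CPM in wild type and at 333, 257, 303 and 298 CPM in CyrKO. Mbp was at 2783, 3028, 2963 and 2968 CPM in wild type and at 2838, 2116, 2918 and 2601 CPM in CyrKO. Myrf was at 60.6, 59.6, 54.2 and 61.1 CPM in wild type and at 64.7, 40.3, 58.1 and 51.5 CPM in CyrKO. For none of the 3 were the groups apart, and they differed by -0.16, -0.17 and -0.14 on the log2 scale. Sox10 was at 21.8, 27.4, 25.7 and 23.4 CPM in wild type and at 26.4, 21.9, 27.00 and 28.2 CPM in CyrKO. Pdgfra was at 28.98, 30.95, 29.4 and 28.5 CPM in wild type and at 31.4, 25.6, 33.3 and 28.9 CPM in CyrKO. Gpr17 was at 48.2, 59.99, 57.7 and 50.6 CPM in wild type and at 59.4, 56.3, 59.2 and 38.4 CPM in CyrKO. All 3 overlapped between the groups, with log2 differences of 0.08, 0.02 and -0.02. Enpp6 was at 18.5, 18.04, 15.6 and 18.4 CPM in wild type and at 19.8, 14.2, 22.9 and 19.8 CPM in CyrKO. Bcas1 was at 152, 171, 162 and 149 CPM in wild type and at 153, 126, 173 and 164 CPM in CyrKO. Both overlapped between the groups, with log2 differences of 0.12 and -0.04.

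Mir7DKO cerebellum of experiment 1B, compared with the same 4 wild-type libraries as CyrKO, had 0 of 41 members past the threshold in edgeR, where 0.00713% of all genes tested passed, and 0 in DESeq2. At an unadjusted p under 0.05 there were 6 members, or 14.6%, beside 3.68% of all genes tested. All 6 were myelinating genes at lower values in Mir7DKO. The median was -0.12, with 7 members above 0 and 34 below. Groups did not overlap for 0 members, beside 2.54% of all genes tested.

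Tspan2 was at 280, 274, 259 and 262 CPM in wild type and at 236, 265, 225 and 210 CPM in Mir7DKO (log2 difference -0.20, SE 0.0689, unadjusted p 0.013 by edgeR). Gsn, the actin-severing protein gelsolin, was at 87.6, 93.7, 79.7 and 92.7 CPM against 65.3, 92.1, 58.3 and 58.6 CPM (log2 difference -0.37, SE 0.13, unadjusted p 0.015 by edgeR). Cnp was at 335, 338, 311 and 348 CPM against 301, 325, 247 and 282 CPM (log2 difference -0.21, SE 0.0769, unadjusted p 0.02 by edgeR). In each of them Mir7DKO replicate 2 lay within the wild-type range, and the adjusted p was 1. Mbp was at 2784, 3028, 2968 and 2985 CPM against 2537, 3030, 2495 and 2468 CPM, with the same library as the high one.

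The 31 myelinating members summed to 6574, 7446, 6234 and 6210 CPM in these Mir7DKO libraries, beside 7077 to 7443 CPM in wild type. The brainstem and deep nuclei markers summed to 368, 369, 321 and 324 CPM, beside 344 to 378 CPM in wild type, and their part in the result was not tested. Progenitor genes overlapped as well: Pdgfra was at 29.99, 29.1, 26.6 and 22.2 CPM against 28.6 to 30.95 CPM in wild type, and Gpr17 at 39.1, 61.8, 51.6 and 33.0 CPM against 48.2 to 60.0 CPM.

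Mog was at 86.04, 84.8, 77.7 and 85.3 CPM in wild type and at 80.5, 83.2, 66.8 and 69.5 CPM in Mir7DKO. Mag was at 181, 184, 152 and 195 CPM in wild type and at 150, 181, 128 and 142 CPM in Mir7DKO. Mobp was at 1194, 1182, 1120 and 1154 CPM in wild type and at 1138, 1109, 1004 and 989 CPM in Mir7DKO. The groups overlapped for each of these, and the log2 differences were -0.16, -0.24 and -0.13. Myrf was at 60.6, 59.6, 54.3 and 61.4 CPM in wild type and at 57.96, 64.8, 57.3 and 53.8 CPM in Mir7DKO. Sox10 was at 21.9, 27.4, 25.8 and 23.6 CPM in wild type and at 24.7, 34.9, 23.8 and 26.5 CPM in Mir7DKO. Olig2 was at 14.5, 18.04, 17.1 and 18.3 CPM in wild type and at 13.8, 17.1, 14.1 and 11.2 CPM in Mir7DKO. Wild type and mutant overlapped in every one of the 3, at log2 differences of -0.01, 0.17 and -0.26. Enpp6 was at 18.5, 18.04, 15.6 and 18.5 CPM in wild type and at 15.2, 19.6, 11.8 and 13.7 CPM in Mir7DKO. Bcas1 was at 152, 171, 163 and 150 CPM in wild type and at 142, 155, 147 and 155 CPM in Mir7DKO. Both overlapped between the groups, with log2 differences of -0.23 and -0.08.

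Mir7DKO cerebellum of experiment 2 had 0 of 41 members past the threshold in edgeR, where 0.198% of all genes tested passed, and 0 in DESeq2. At an unadjusted p under 0.05 there were 5 members, or 12.2%, beside 6.78% of all genes tested, all lower in Mir7DKO. The median was -0.06, with 14 members above 0 and 27 below. Evi2a, a membrane protein of the lineage, was at 19.4, 21.8, 21.8 and 22.0 CPM in wild type and at 17.0, 17.6 and 18.5 CPM in Mir7DKO (log2 difference -0.27, SE 0.0913, adjusted p 0.439 by edgeR). Cnp was at 340, 351, 328 and 329 CPM against 311, 311 and 296 CPM (log2 difference -0.14, SE 0.0484, adjusted p 0.452 by edgeR). Gsn was at 78.0, 82.2, 74.1 and 74.6 CPM against 67.8, 73.2 and 62.9 CPM (log2 difference -0.18, SE 0.0642, adjusted p 0.461 by edgeR). With Klk6, these were the 4 members whose groups did not overlap, beside 6.70% of all genes tested.

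Mbp overlapped, at 2793, 2612, 2929 and 2694 CPM in wild type and 2798, 2631 and 2873 CPM in Mir7DKO. Pdgfra was at 29.96, 28.0, 32.4 and 28.5 CPM against 27.8, 34.6 and 30.9 CPM. Choroid plexus markers summed to 709, 454 and 32.6 CPM in the 3 Mir7DKO libraries and to 34.8 to 39.9 CPM in wild type, and Ttr, Kl, Slc4a5 and Prlr among them were higher, at 6.01, 3.66, 2.59 and 3.16. In the same order of libraries 6 brainstem and deep nuclei markers summed to 373, 362 and 449 CPM, beside 415 to 438 CPM in wild type. With both libraries rich in choroid plexus RNA left out, the member median was 0.00, with 21 members above 0 and 20 below, and a fit with those markers as a covariate gave a median of 0.01. Both steps rest largely on the lone Mir7DKO library low in those markers, and the part of choroid plexus was not tested.

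Mog was at 94.8, 92.7, 91.4 and 88.2 CPM in wild type and at 81.5, 81.8 and 88.98 CPM in Mir7DKO. Mag was at 173, 182, 180 and 173 CPM in wild type and at 175, 166 and 156 CPM in Mir7DKO. Mobp was at 1260, 1213, 1288 and 1176 CPM in wild type and at 1118, 1128 and 1292 CPM in Mir7DKO. For none of the 3 were the groups apart, and they differed by -0.13, -0.09 and -0.07 on the log2 scale. Myrf was at 61.1, 67.9, 67.4 and 57.7 CPM in wild type and at 60.5, 59.9 and 54.7 CPM in Mir7DKO. Sox10 was at 25.1, 23.5, 26.6 and 27.5 CPM in wild type and at 28.4, 30.6 and 26.4 CPM in Mir7DKO. Olig2 was at 14.4, 15.4, 13.8 and 9.52 CPM in wild type and at 16.2, 12.4 and 14.9 CPM in Mir7DKO. All 3 overlapped between the groups, with log2 differences of -0.12, 0.15 and 0.13. Gpr17 was at 43.6, 46.1, 43.3 and 42.6 CPM in wild type and at 41.4, 42.4 and 43.8 CPM in Mir7DKO. Enpp6 was at 18.9, 20.9, 20.6 and 17.9 CPM in wild type and at 18.1, 21.1 and 21.7 CPM in Mir7DKO. Bcas1 was at 172, 164, 198 and 180 CPM in wild type and at 164, 178 and 192 CPM in Mir7DKO. The groups overlapped for each of these, and the log2 differences were -0.04, 0.05 and -0.01.

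Mir7DKO cortex had 0 of 41 members past the threshold in edgeR, where 0.0436% of all genes tested passed, and 0 in DESeq2. At an unadjusted p under 0.05 there were 3 members, or 7.32%, beside 5.77% of all genes tested. The median was -0.06, with 7 members above 0 and 34 below. Pdgfra, the 1 of these 3 with a higher value in Mir7DKO, was at 73.6, 70.5, 76.0 and 69.4 CPM in wild type and at 81.6, 83.2 and 74.6 CPM in Mir7DKO (log2 difference 0.14, SE 0.0614, adjusted p 0.849 by edgeR). Mal was at 436, 499, 469 and 507 CPM against 418, 450 and 454 CPM (log2 difference -0.12, adjusted p 0.859 by edgeR). Enpp6 was at 16.3, 15.8, 13.8 and 15.1 CPM against 12.1, 13.6 and 13.4 CPM (log2 difference -0.22, adjusted p 0.865 by edgeR). Enpp6 and Sirt2 were the 2 members whose groups did not overlap, beside 6.99% of all genes tested.

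Mbp in cortex was at 2884, 3187, 2784 and 3012 CPM in wild type and at 2859, 2965 and 2743 CPM in Mir7DKO, with overlap. Gpr17 was at 103, 112, 108 and 110 CPM against 103, 102 and 108 CPM. Choroid plexus markers went the other way from cerebellum here, at 14.7 to 379 CPM in wild type and 15.2 to 18.4 CPM in Mir7DKO, and Ttr was lower at -5.78 (adjusted p 0.0413 by edgeR). Trf was at -0.05 and Car2 at 0.00. The member median moved away from 0, to -0.11, with the choroid plexus covariate and to -0.09 with both wild-type libraries rich in that RNA left out, with 6 members above 0 and 35 below in each.

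Mog was at 86.9, 103, 82.2 and 99.97 CPM in wild type and at 86.98, 94.6 and 87.1 CPM in Mir7DKO. Mag was at 177, 187, 162 and 181 CPM in wild type and at 156, 173 and 165 CPM in Mir7DKO. Mobp was at 1187, 1405, 1268 and 1327 CPM in wild type and at 1200, 1274 and 1191 CPM in Mir7DKO. Wild type and mutant overlapped in every one of the 3, at log2 differences of -0.05, -0.10 and -0.09. Cnp was at 357, 382, 346 and 379 CPM in wild type and at 335, 363 and 335 CPM in Mir7DKO. Myrf was at 61.9, 62.4, 55.4 and 63.01 CPM in wild type and at 50.1, 60.8 and 56.04 CPM in Mir7DKO. Sox10 was at 34.2, 33.6, 39.3 and 39.3 CPM in wild type and at 38.2, 37.8 and 31.5 CPM in Mir7DKO. For none of the 3 were the groups apart, and they differed by -0.09, -0.12 and -0.04 on the log2 scale. Olig2 was at 24.8, 26.04, 27.3 and 28.5 CPM in wild type and at 22.9, 28.6 and 26.5 CPM in Mir7DKO. Bcas1 was at 185, 191, 166 and 182 CPM in wild type and at 177, 182 and 170 CPM in Mir7DKO. Both overlapped between the groups, with log2 differences of -0.02 and -0.04.

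**Figure D4:**
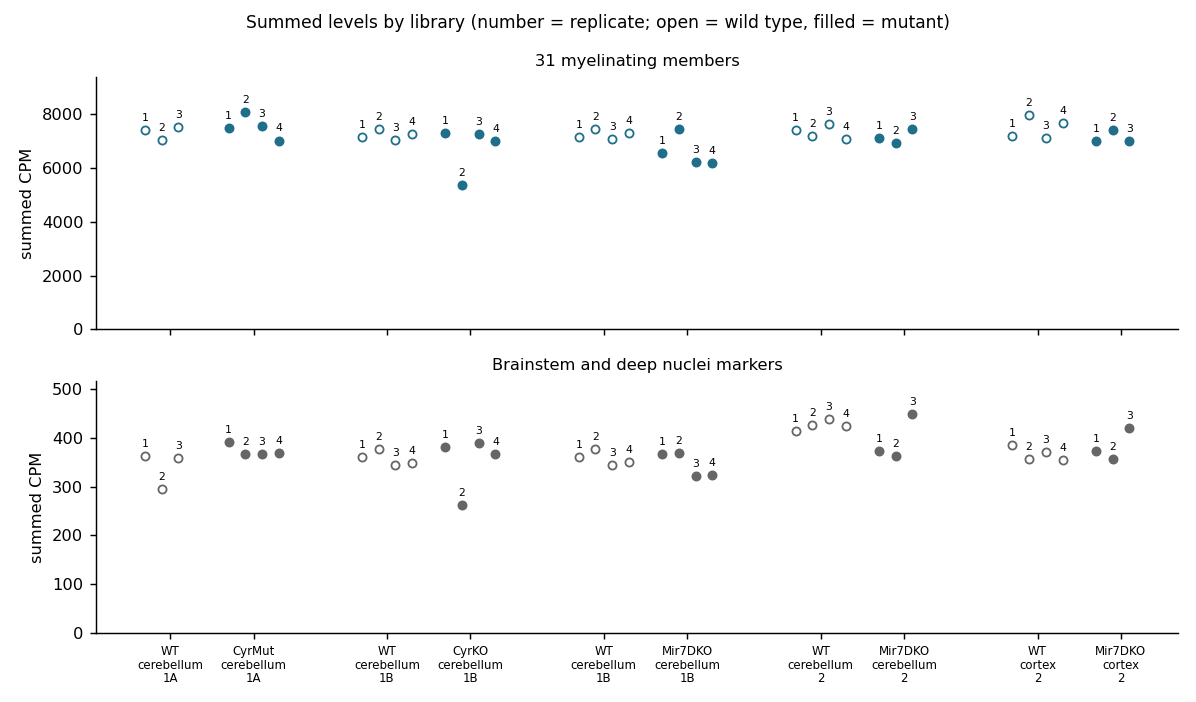
Summed CPM of the 31 myelinating members (upper panel) and of the brainstem and deep nuclei markers (lower panel) in each library of the 5 comparisons. Numbers are replicates, open points wild type and filled points mutants. CyrKO replicate 2 is lowest in both panels, at 5387 and 262 CPM.

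How large a change the data could hold was read from the intervals. On the log2 scale, the median half-width of a member's 95% interval was 0.16 for CyrMut and 0.22 for CyrKO. For Mir7DKO it was 0.21 (experiment 1B), 0.14 (cerebellum, experiment 2) and 0.15 (cortex). The interval lay wholly within 0.5 of 0 for 39, 36, 35, 39 and 40 of the 41 members in the same order. These half-widths are not a limit of detection after adjustment over all genes, which needs larger differences.

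The 3 Mir7DKO comparisons share no library. A log2 difference below 0 in all 3 was seen for 23 of 41 members (56.1%) and above 0 in all 3 for 1 (2.44%), beside 13.7% and 13.9% of the 13100 genes tested in each. Members are read from the same libraries and largely from the same cells, so they are not independent of each other, and the labels do not say whether cerebellum and cortex of experiment 2 came from the same animals. The count rests in part on cerebellum of experiment 2, where 27 members lay below 0 but 20 with the choroid plexus covariate, and 20 with both libraries rich in that RNA left out. There the choroid plexus gene Ttr was at 580, 360 and 3.47 CPM in Mir7DKO and at 2.76 to 8.70 CPM in wild type. Both steps therefore rest largely on Mir7DKO replicate 3, and they cannot separate choroid plexus RNA from genotype. The myelinating sums moved with the brainstem and deep nuclei markers in part of these libraries, as given above, and the part of either in the count was not tested. Of the 23, 18 were myelinating, among them Cnp, Mag, Mog, Mobp, Mal and Gsn, and the rest included Bcas1, Gpr17, Olig1 and Myrf.

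Because miR-7 pairs through its seed, the 10 members with a match were read side by side. Their median log2 difference was -0.14 in experiment 1B, and in experiment 2 it was -0.05 (cerebellum) and -0.07 (cortex). For the 31 members without a match the medians were -0.08, -0.06 and -0.05, and for all genes with a match they were 0.00, 0.00 and 0.01. Members with a match lay above 0 in 0, 4 and 1 of 10 cases, and none of the 10 passed in any comparison.

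Pdgfra, with an 8-mer near the end of its 3′ UTR, was at -0.13 (SE 0.0919), 0.07 (SE 0.0861) and 0.14 (SE 0.0614) in these 3 comparisons. Mobp, also with an 8-mer, was at -0.13 (SE 0.0588), -0.07 (SE 0.0521) and -0.09 (SE 0.0531), and Tmem88b, with the third 8-mer, at -0.17 (SE 0.0809), -0.04 (SE 0.0558) and -0.07 (SE 0.0723). Mog, with matches of both 7-mer kinds, was at -0.16, -0.13 and -0.05, and Mbp, with 3 matches, at -0.16, 0.01 and -0.06. Tspan2 was at -0.20, -0.08 and -0.09, Myrf at -0.01, -0.12 and -0.12, and Gjc3 at -0.10, 0.00 and -0.12. Ugt8a was at -0.20, 0.02 and -0.01, and Nkx6-2 at -0.11, -0.07 and -0.08. Members with a match had longer 3′ UTRs, with a median of 2789 bases against 1149 bases over the 41.

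**Figure D5:**
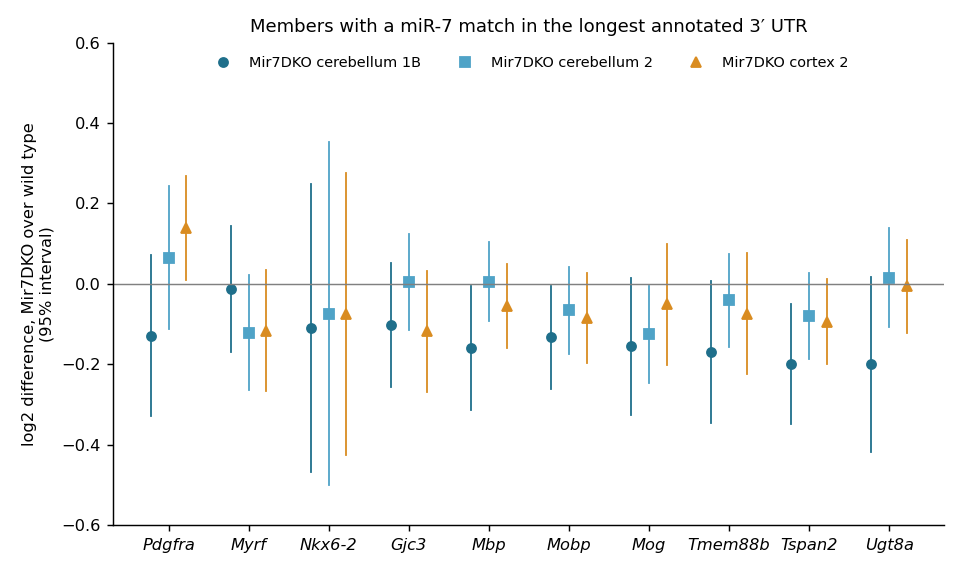
Log2 difference, Mir7DKO over wild type, with its 95% interval (vertical axis), of the 10 members with a miR-7 match in the 3 Mir7DKO comparisons. The points lie between -0.20 and 0.14, and none passed the adjustment.

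Whether the Mir7DKO effect differed between tissues or between experiments was tested directly. The difference between the effects in cerebellum and cortex passed for 0 of 41 members in edgeR, beside 0.155% of all genes tested, and 0 in DESeq2. At an unadjusted p under 0.05 there were 0 members, beside 4.92%. Cryab had the smallest p, at 0.19 (SE 0.097, adjusted p 1 by edgeR). The difference between experiments 2 and 1B in cerebellum passed for 0 members in edgeR, beside 0% of all genes tested, and 0 in DESeq2, and at an unadjusted p under 0.05 for 1, beside 3.83%. That member was Evi2a, at -0.37 (SE 0.128, adjusted p 0.999 by edgeR).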

How the data were processed

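RNA of cerebellum and cortex was measured in 33 stranded, polyadenylated-RNA libraries. The authors deposited 5 tables of raw counts per gene with their own DESeq2 log2 fold changes and p-values, the last used here only where named. STAR 2.4, HTSeq 0.6.1p1, DESeq2 1.10 and the builds mm10 and GRCm38 come from the submitters' processing notes. The annotation release, the strand setting and the treatment of reads with several matches were not given in the sources used here. A cell missing from 1 record was put back, 1 count differed between both tables that hold the wild type of experiment 1B, and 37 columns of normalised values were not used.

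All genes were tested on the counts in R 4.3.3 with edgeR 4.0.16: low counts removed by filterByExpr (minimum 10), TMM scaling, the quasi-likelihood F-test without a covariate, and Benjamini-Hochberg adjustment with a threshold of 0.05. Each comparison used its own libraries. All 41 members passed the filter throughout. Totals of 6887853 to 24939149 counts and a biological coefficient of variation of 5.13% to 9.79% set the precision. The SE is the log2 difference divided by the root of F, and intervals are 95%. CPM is scaled separately in each comparison. DESeq2 1.42.0, other scalings, no filter, leaving out each library, a replicate block and a choroid plexus covariate were the alternatives. No pair of libraries in a group was alike within sampling noise (chi-square per degree of freedom of 1.71 or more). On simulated data the fit recovered 11 to 24 of 50 genes changed 1.25-fold, the smallest fold simulated and larger than most member differences in the mutants. It recovered 37 to 42 of 50 genes changed 1.5-fold and 45 to 50 of 50 changed 2-fold. These fits covered 13664 to 14866 genes in 6 comparisons, with 6 to 12 false calls. Smaller changes were not simulated.

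Gene lengths and 3′ UTRs came from GENCODE M21. Sept4 was matched by its gene ID. The members, classes and lists were chosen with earlier results of these data known. Genes named are 12 fixed members, up to 6 called members a direction with a mean count of at least 50, the 3 of smallest p in each mutant comparison, members with a miR-7 match, members also known from other cells, called genes of fixed marker lists in the mutants, and at most 4 a list between tissues. Other members, such as Sirt2, Ermn or Cldn11, were named to account for a class or a count.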

Additional observations from a re-analysis of the deposited data

Results flagged for a closer look

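Among 264 pairs of a value and a group of 4 libraries, 18 had 1 library far from the others of its group, and chance gives about 1 in 20. CyrKO replicate 2 held 5 of these values, all low. They were Aspa at 14.3 CPM (others 22.5 to 23.3), Mobp at 810 CPM (1195 to 1259), Tspan2 at 216 CPM (282 to 294), Ugt8a at 108 CPM (174 to 178) and the summed myelinating members at 5387 CPM (7029 to 7322). Gpr17 was low in CyrKO replicate 4, at 38.4 CPM beside 56.3 to 59.4 CPM.

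In the wild type of experiment 1B, replicate 3 was high for Cryab at 67.4 CPM (60.7 to 61.7) and low for Enpp6 at 15.6 CPM (18.0 to 18.5) and Mog at 77.5 CPM (84.8 to 86.0), and replicate 4 was high for Trf at 57.4 CPM (40.0 to 41.6). Mir7DKO replicate 2 of that experiment was high for Mbp at 3030 CPM (2468 to 2537) and Sirt2 at 171 CPM (149 to 152), and replicate 3 low for Ppp1r14a at 2.89 CPM (4.33 to 4.48).

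Of the rest, Evi2a was low in wild-type cerebellum replicate 1 of experiment 2, at 19.4 CPM (21.8 to 22.0). In wild-type cortex, Myrf was low in replicate 3 at 55.4 CPM (61.9 to 63.0) and Olig1 in replicate 1 at 78.5 CPM (89.7 to 91.4). In CyrMut, Ndrg1 was low in replicate 4 at 92.9 CPM (102 to 103), and the summed factors were low in replicate 1 at 164 CPM, where the others lay at 166 to 167 CPM.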

How the results depend on the processing

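No member passed in a mutant comparison under any alternative run. Leaving out each library gave member medians of 0.02 to 0.08 in CyrMut, -0.10 to 0.01 in CyrKO, -0.17 to -0.09 in Mir7DKO of experiment 1B, -0.07 to -0.03 in its cerebellum of experiment 2 and -0.10 to -0.04 in cortex. The median of Mir7DKO cerebellum of experiment 2 moved from -0.06 to 0.01 (0.00705) with a choroid plexus covariate, and to 0.00029 with both libraries rich in that RNA left out. In Mir7DKO cortex the same steps moved it from -0.06 to -0.11 and -0.09. The leaving out was chosen after seeing the data, and the lone mutant library in cerebellum is assumed to vary like the others. The covariate fit in cerebellum likewise rests largely on that library. Between tissues, 28 to 30 members passed with each library left out (medians -0.07 to 0.01), beside 10190 to 10446 of all genes. In DESeq2 28 members passed, beside 9898 of 14001 genes tested. With Mir7DKO libraries in place of wild type 25 passed, beside 9836 of 14431 genes, and Evi2a reversed to -0.0475. Library totals alone moved the tissue median from -0.03 to 0.0364, with Mobp lost (adjusted p 0.174 by edgeR) and Ndrg1 gained. The cause of these shifts was not tested.

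With a replicate block, 0 members passed in the mutants and 29 between tissues, with medians of 0.07, -0.08, -0.14, -0.07 and -0.06 in the 5 mutant comparisons and -0.02 between tissues. The labels do not say whether equal numbers pair the samples. In Mir7DKO cortex each library correlated best with its own number, at correlations of 0.0940, 0.104 and 0.0489, a hint from the data and not the design. The block raised the calls over all genes there from 6 to 19. In no other comparison did every library correlate best with its own number. Between tissues, Nkx6-2 and Ppp1r14a had mean counts of 43.6 and 46.4, the lowest depth among the members.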
